A study of Mus musculus with 2 samples.

Results

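Short binding sites that lay close to another site made up 787 of the 2888 peaks (27.3%) listed for HA-Dido3 in mouse embryonic stem cells. A peak was counted here when it was 500 bp long or less and had at least 1 other listed peak, of any length, within 1 kb on the same chromosome. These peaks are called close short peaks. The peaks were thus chosen by their measured length and gap. The rule used only the start and end of each peak, and those come from the same ChIP library as every other value below, so lengths and gaps describe the choice and no value was tested against the rest of the list. The other peaks fell into 1131 isolated short peaks with no listed peak within 1 kb, 645 mid-length peaks of 501 to 1000 bp and 325 broad peaks of over 1000 bp.

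The list came from chromatin immunoprecipitation and sequencing (ChIP-seq), in which DNA that is crosslinked to a protein is recovered with an antibody and sequenced. The 1 ChIP library was made with a polyclonal antibody against HA, a short peptide tag, and the 1 input library was made from the same kind of cells with no antibody. Both came from C57BL/6 embryonic stem cells of the genotype Dido3deltaCT+HADido3, that is, cells with an allele labelled Dido3deltaCT that had received tagged Dido3, grown with leukemia inhibitory factor in self-renewal conditions. With 1 library of each kind there was no replicate, and with no anti-HA library of untagged cells, binding by the tagged protein and non-specific precipitation cannot be told apart.

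Dido3 is an isoform encoded by Dido1. Proteins of this gene carry a PHD finger, a small zinc-binding module that can hold the tail of histone H3 when its lysine 4 is trimethylated, a mark of active promoters. A peak caller marks stretches where ChIP tags are denser than the background it expects. Where tags are dense over a long stretch but unevenly spread, such a program can list 1 long peak or several short ones, and separate sites that lie close together are also listed as several peaks. The table holds positions in the mouse build mm9 and no gene names, and the gene and promoter tables used here describe GRCm38, so the peaks were not joined to genes or to sequence.

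Close short peaks were weak entries of the list. They held a median of 13 tags (95% interval 12 to 13, n = 787), quartiles of 11 and 16, and between 9 and 33 in all. Tags are sequenced ChIP reads counted in the peak. Only 62 close short peaks held 20 tags or more and only 8 held 25 or more, while 46 had 9 tags, the lowest number in the list. Together they contained 10701 of the 84288 tags in all peaks (12.7%) on 279 of 1658 kb (16.8%). Median length was 346 bp (interval 338 to 354), with quartiles of 300 and 405 bp.

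The score, which is the peak caller's p-value as minus 10 times its log10, had a median of 66.1 among close short peaks (interval 64.8 to 67.4), with quartiles of 55.8 and 84.0. Scores, folds and false discovery rates are the values deposited for each peak. A score of at least 100 was listed for 100 close short peaks (12.7%, interval 10.5% to 15.2%), where 35.9% of all listed peaks reached it. The highest rank by score of any close short peak was 392 of 2888, so none stood among the 10% of peaks with the highest scores. A fold of at least 20 over the expected background at the summit was listed for 25 close short peaks (3.18%), against 14.5% of the list. The false discovery rate was above 5% for 340 of them (43.2%, interval 39.7% to 46.7%), against 35.4% of the list. Scores and tags grow with length, which the rule limits, so these shares are not independent of the choice of peaks. The false discovery rate did not fall steadily with score. Its median was 1.2% for mid-length and 1.79% for broad peaks, and it reached 33.33% among broad peaks and 11.33% among close short ones.

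The isolated short peaks were the most alike in shape, and their values lay somewhat lower. Isolated short peaks had a median of 11 tags (interval 11 to 12), a median length of 315 bp and a median score of 59.6 (interval 58.7 to 60.7). A score of at least 100 was listed for 73 of the 1131 (6.45%, interval 5.09% to 8.05%), and a false discovery rate above 5% for 56.9% (interval 54.0% to 59.8%). Median fold was 13.7 in both kinds of short peak. A fold of at least 20 was listed for 27 isolated short peaks (2.39%, interval 1.58% to 3.45%), near the 3.18% of close short peaks. Mid-length peaks had a median of 29 tags and a median score of 145.7, and broad peaks a median of 93 tags and a median score of 494.4. Tag density separated the classes less than total tags did. Close short peaks had a median of 37.0 tags per kb (interval 36.6 to 37.3), isolated short peaks 36.4, mid-length peaks 43.6 and broad peaks 60.3.

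At like length, median scores of close and isolated short peaks differed little at 300 bp or less. Close short peaks had the higher median in the longer bands, with overlapping intervals in every band. Among peaks of 300 bp or less, the median score was 55.1 for 198 close peaks (interval 54.3 to 56.2) and 54.6 for 402 isolated ones (interval 54.2 to 55.3), and these intervals overlap. From 301 to 400 bp the medians were 64.8 for 372 close peaks (interval 61.6 to 66.4) and 60.6 for 532 isolated peaks (interval 59.5 to 61.7). From 401 to 500 bp they were 90.8 for 217 close peaks (interval 87.0 to 95.6) and 84.6 for 197 isolated peaks (interval 81.3 to 90.5). In this longest band 78 close peaks (35.9%, interval 29.6% to 42.7%) and 50 isolated peaks (25.4%, interval 19.5% to 32.1%) had a score of at least 100. Only in this band did the close short peaks have a share equal to the 35.9% of the whole list.

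**Figure D1:**
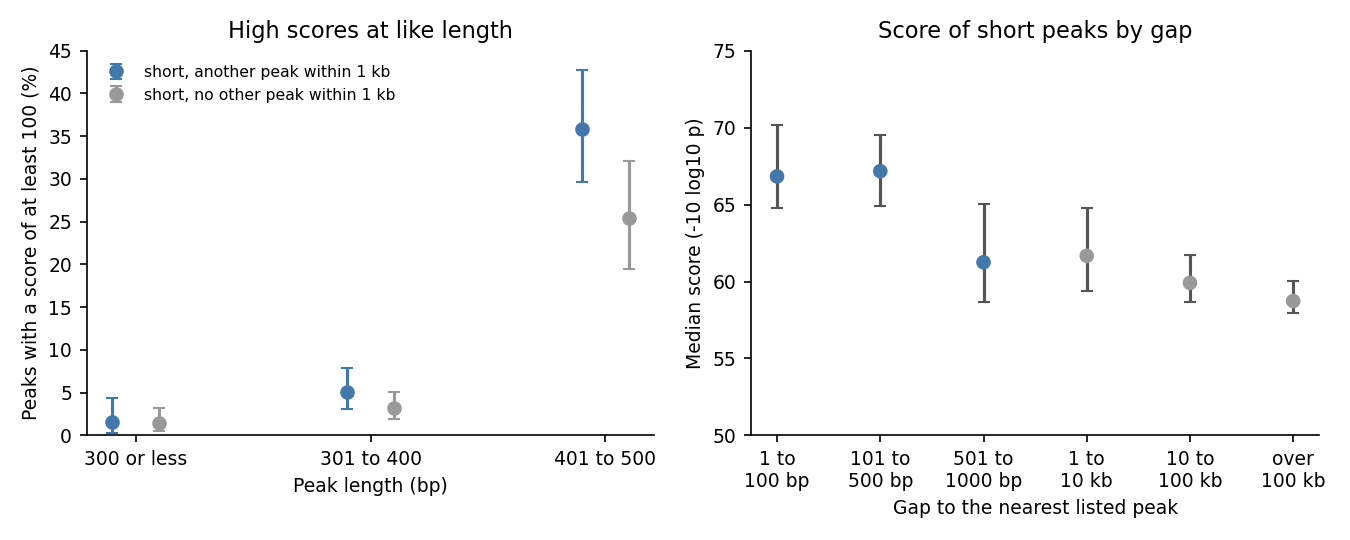
Left, percent of short peaks with a score of at least 100 in 3 bands of length in bp, for peaks with and without another peak within 1 kb. Right, median score of short peaks by gap to the nearest listed peak, with the bands up to 1000 bp in blue and wider gaps in grey. Bars are exact 95% intervals that cover counting error only. In the band from 401 to 500 bp the shares were 35.9% and 25.4%, and the median score was 66.8 at gaps of 1 to 100 bp and 58.7 at gaps over 100 kb.

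Within the close short peaks, those up to 500 bp from their neighbour had higher median scores than those farther away, but the intervals overlapped. The median score was 66.8 at gaps of 1 to 100 bp (interval 64.8 to 70.2, n = 274), 67.2 at 101 to 500 bp (interval 64.9 to 69.5, n = 354) and 61.3 at 501 to 1000 bp (interval 58.7 to 65.0, n = 159). That last value lay near those of isolated short peaks, which were 61.7 at gaps of 1 to 10 kb (interval 59.4 to 64.8, n = 233), 59.9 at 10 to 100 kb (n = 344) and 58.7 at over 100 kb (interval 57.9 to 60.02, n = 554). The false discovery rate exceeded 5% for 40.9% and 40.4% of close short peaks in the first pair of bands and for 53.5% at 501 to 1000 bp (interval 45.4% to 61.4%). On either side of the 1 kb limit the medians, 61.3 and 61.7, were thus close.

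The neighbours of close short peaks were of all lengths. The nearest peak was short for 481 (61.1%, interval 57.6% to 64.5%), mid-length for 201 (25.5%) and broad for 105 (13.3%). In the whole list 66.4% of peaks were short, 22.3% mid-length and 11.3% broad. The neighbours were thus less often short than the list and more often mid-length (interval 22.5% to 28.7%). The list is a loose reference, because its short peaks include the 1131 isolated ones, which cannot be a neighbour within 1 kb. Where the nearest peak was longer than 500 bp, it had the higher score for 298 of 306 close short peaks (97.4%), and it lay on the side of lower coordinates for 154 and of higher coordinates for 152. Of all mid-length peaks 86.8% had a score of at least 100, as had 93.8% of broad ones. The higher score of a longer neighbour thus follows largely from the length limit of the rule. Median scores lay within a few units of each other and were highest beside a mid-length peak. The interval there lay just above that beside a short peak and overlapped that beside a broad peak. The median score of the close short peak was 64.9 beside a short peak (interval 63.0 to 66.6), 69.1 beside a mid-length peak (interval 66.8 to 74.9) and 64.4 beside a broad peak (interval 58.7 to 71.7). Median fold was 13.7 in all 3 cases. A second peak lay within 1 kb on the opposite side for 159 close short peaks (20.2%), whose median score was 67.0 (interval 64.8 to 71.4), against 65.8 (interval 63.7 to 67.4) for the 628 with a peak on 1 side.

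Gaps were mostly short. A gap between neighbouring peaks is the number of bases between the end of one and the start of the next, and 653 distinct gaps of at most 1 kb touched a close short peak. Their median was 205 bp (interval 179 to 229), and 213 of them (32.6%, interval 29.0% to 36.4%) were 100 bp or less. The next 100 bp held 109 gaps, and the last, from 901 to 1000 bp, held 26. Gaps to a broad peak were shorter, with a median of 138 bp (interval 93 to 196, n = 119), than gaps between 2 short peaks, with a median of 243 bp (interval 198 to 287, n = 293). For gaps to a mid-length peak the median was 203 bp (interval 158 to 240, n = 241). The narrowest gaps were of 1 bp. One such gap parted 2 short peaks on chromosome 11 (97485422 to 97485759 and 97485761 to 97485968), with 12 and 11 tags. Another lay beside a close short peak on chromosome 7 (4858851 to 4859217) with 16 tags, and one more beside a peak on chromosome 17 (47736143 to 47736614) with 18 tags.

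The summit is the position of the highest tag pile-up in a peak. Neighbouring summits across these gaps lay a median of 723 bp apart (interval 692 to 770, n = 653), with quartiles of 509 and 1027 bp. Between 2 short peaks the median was 605 bp (interval 577 to 664), and the closest pair of summits was 176 bp apart. The sheared fragments were of about 200 to 500 bp, per the labels' protocols, so some neighbouring summits lay within the length of a single fragment.

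**Figure D2:**
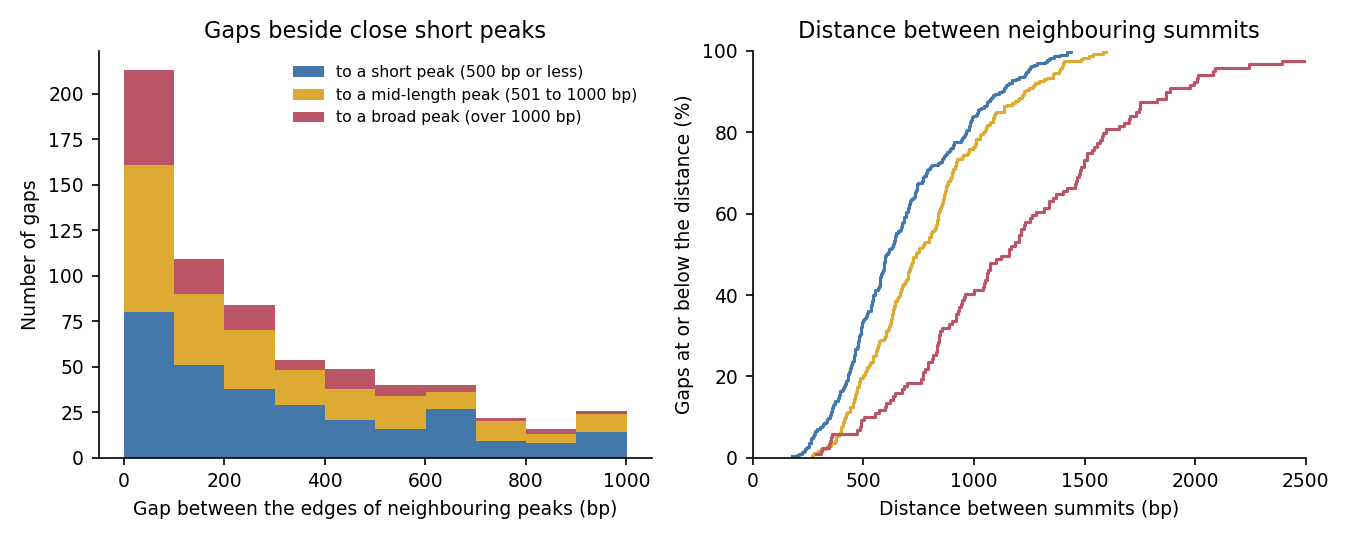
Left, number of the 653 gaps beside close short peaks in bins of 100 bp, stacked by the class of the longer peak of the pair. Right, cumulative percent of the same gaps by distance between the summits of the pair in bp, drawn up to 2500 bp, with the largest distance at 4476 bp. The first bin holds 213 gaps and the last 26, and summit distances are longest for pairs with a broad peak.

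The side of the summit was not used to choose the peaks. Over all close short peaks it showed no lean, since 402 of 787 summits (51.1%, interval 47.5% to 54.6%) lay in the part of the peak nearer to its neighbour. Among the 100 with a score of at least 100, however, 67 summits (67.0%, interval 56.9% to 76.1%) lay on the side of the neighbour. Of the 73 isolated short peaks with such a score, 36 summits (49.3%, interval 37.4% to 61.3%) lay toward the nearest listed peak. At scores from 75 to 100 the close short peaks gave 51.2% (interval 43.4% to 58.8%, n = 172), and from 50 to 60 they gave 47.2% (interval 41.4% to 53.0%, n = 299). Among the 100 high-scoring peaks the count was 28 of 34 beside a mid-length peak (82.4%, interval 65.5% to 93.2%), 9 of 13 beside a broad peak and 30 of 53 beside a short peak (56.6%, interval 42.3% to 70.2%). By gap it was 28 of 36 at 1 to 100 bp, 31 of 47 at 101 to 500 bp and 8 of 17 at 501 to 1000 bp. The split by score was chosen after the values were seen, and the lean of the 100 peaks is a description of this list.

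**Figure D3:**
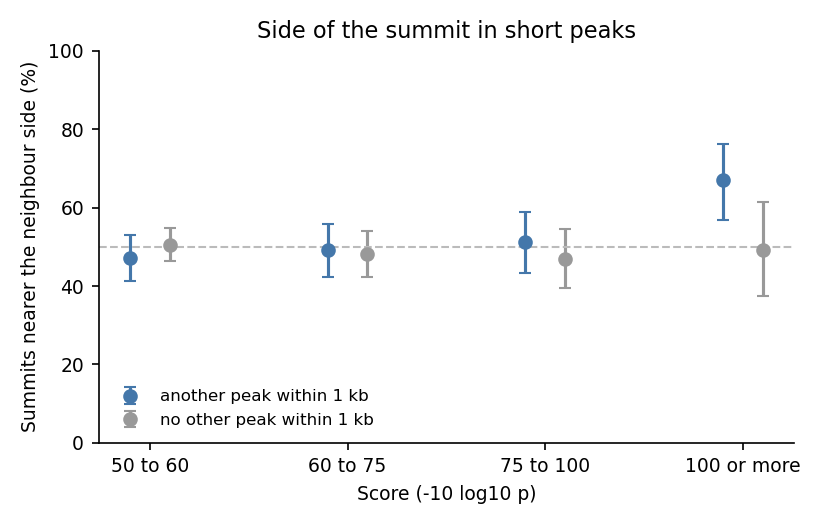
Percent of short peaks whose summit lies in the part nearer to the closest listed peak, by score, for short peaks with and without another peak within 1 kb. Bars are exact 95% intervals and the dashed line marks 50%. At scores of 100 or more the share was 67.0% for close short peaks and 49.3% for isolated ones.

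Peaks joined by gaps of at most 1 kb form a run, and the 787 close short peaks lay in 459 runs with 1176 peaks in all. Peaks of a run share their neighbourhood, so the intervals above, which treat peaks as independent, are likely too narrow. A run held 2 peaks in 278 cases, 3 in 127, 4 in 37 and 5 or more in 17. The runs were of 3 kinds. In 162 runs (35.3%), with 374 close short peaks, every peak was short. In 180 runs (39.2%), with 260 close short peaks, the longest peak was mid-length, and in 117 runs (25.5%), with 153 close short peaks, it was broad. Of the 181 runs with 3 or more peaks, 40 held short peaks only. In the other 141, the peak with the highest score was a close short peak in 3 (2.13%, interval 0.441% to 6.09%) and a longer peak in the rest. Scores grow with length, so this low share also follows largely from the length limit. In the 127 runs of exactly 3 peaks, the strongest peak was the middle one in 48 (37.8%, interval 29.3% to 46.8%). Equal chances for the 3 places would give 1 in 3, which lies within this interval.

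Runs of short peaks alone summed to about as many tags as a single mid-length peak, over a longer stretch. Such a run adds up the tags of several peaks and includes the gaps between them. Its tags and span thus follow largely from its definition. These 162 runs had a median of 28 tags (interval 26 to 29, range 18 to 80), and the 645 mid-length peaks had a median of 29 (interval 28 to 31). The median span of the runs was 1167 bp (interval 1059 to 1236), of which a median of 71.1% was covered by peaks, against a median length of 665 bp for the mid-length peaks. The highest score in such a run had a median of 77.0 (interval 74.1 to 81.3), below the 145.7 of mid-length peaks. Scores grow with length, and no peak of these runs is longer than 500 bp. Runs with a broad peak had a median of 121 tags over 2544 bp, with a median highest score of 498.2.

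The run with the most peaks lay on chromosome 2 (157416185 to 157421415) and held 6 close short peaks among 9. The first 3 peaks were short, with 15, 17 and 10 tags. They were followed by the strongest peak of the run, a mid-length peak of 979 bp with 65 tags, a score of 451.3 and a fold of 25.4, and by one of 507 bp with 25 tags, just over the length limit. The remaining short peaks had 11, 21 and 18 tags, and the run ended in a mid-length peak of 696 bp with 30 tags. The short peaks of this run had folds from 9.78 to 19.57 and scores from 52.2 to 131.3.

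A run on chromosome 11 (97017902 to 97022479) was made of 6 short peaks and no longer one. Tags were 12, 12, 21, 14, 11 and 10 in order of position, or 80 in all, over 4578 bp of which peaks covered 46.1%. Only the peak with 21 tags (97019343 to 97019787, 445 bp) had a score above 100, at 130.7. After these 2 runs, 12 runs tied with 4 close short peaks each, and the 3 of them with the most tags are described next. The run on chromosome 17 (29180724 to 29185012), had a broad peak of 1462 bp with 83 tags and a score of 518.7. One short peak with 11 tags lay on its lower side and 3 with 26, 13 and 11 tags lay on its upper side, so on that side tags went down with distance from the broad peak. Lengths went down there as well, from 500 to 361 and 311 bp. On chromosome 6 (71825902 to 71829656) a broad peak of 1528 bp with 69 tags had a short peak of 15 tags only 4 bp away on one side and short peaks of 21, 15 and 10 tags on the other. A run on chromosome 1 (8943164 to 8946063) began with 4 short peaks of 21, 11, 12 and 14 tags and went on with peaks of 610 and 683 bp that had 24 and 23 tags.

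**Figure D4:**
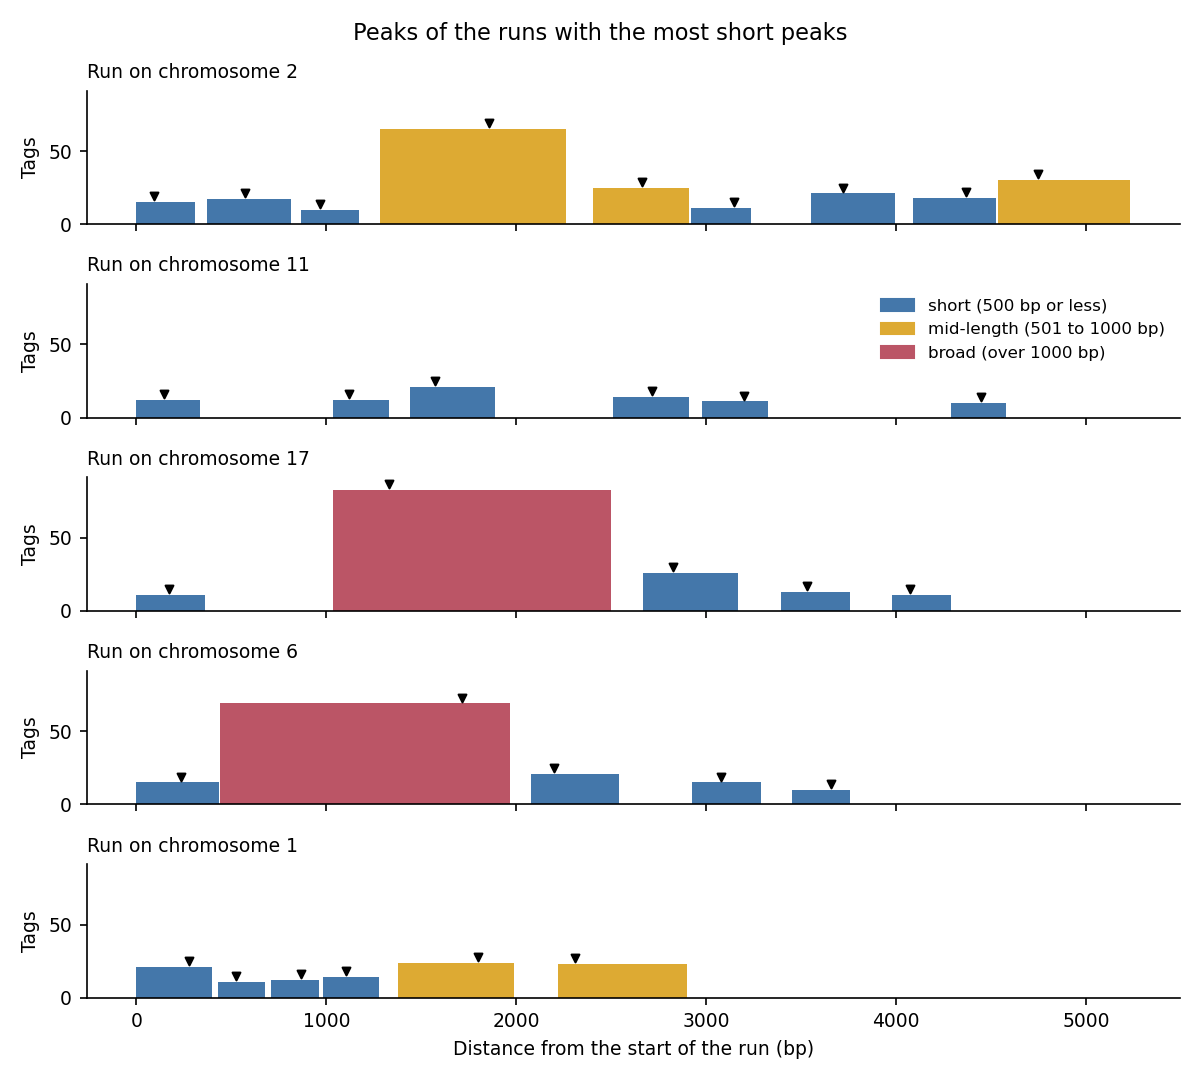
Both runs with 6 close short peaks and, of the 12 runs with 4, the 3 with the most tags, each peak drawn as a bar from its start to its end with its tag count as height, at its distance in bp from the start of the run. Triangles mark summits. The run on chromosome 11 has only short peaks of 10 to 21 tags, and those on chromosomes 17 and 6 have a broad peak of 83 and 69 tags between short ones.

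The highest scoring close short peak stood apart by its fold. It covered 218 bp of chromosome 8 (124364604 to 124364821), held 24 tags and had a score of 230.3 and a fold of 45.01, the highest fold of any close short peak. A peak of 947 bp with 97 tags and a score of 833.6 followed it after 114 bp, and a mid-length peak lay 125 bp away on its other side. Second by score was a peak on chromosome 13 (17752579 to 17752998) with 30 tags, a score of 221.1 and a fold of 23.5, and 81 bp from a mid-length peak of 92 tags. The next was a peak on chromosome 6 (67245148 to 67245611) with 29 tags, a score of 198.7 and a fold of 29.4, only 31 bp from a broad peak of 102 tags.

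The fourth lay on the X chromosome (12871148 to 12871516), with 22 tags and a score of 156.8. Its nearest neighbour, 149 bp away, was a short peak of 10 tags and a score of 53.2, so here the close short peak was the stronger of the pair. Another short peak lay 164 bp away on its other side. The remaining 6 of the 10 highest scores ranged from 143.1 to 155.5 with 22 to 26 tags. They lay on chromosome 5 (60339440 to 60339929), chromosome 7 (148255943 to 148256427), chromosome 13 (101547335 to 101547819 and 54780728 to 54781205), chromosome 17 (74182957 to 74183375) and chromosome 11 (74990086 to 74990517). Of these 6, those at 54780728 on chromosome 13 and on chromosome 11 were beside a weaker short peak of 9 and 11 tags. The one on chromosome 7, with a score of 152.7, was also stronger than its mid-length neighbour, which had a score of 141.3.

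The next highest fold, 29.35, was shared by the peak on chromosome 6 at 67245148 and a peak on chromosome 8 (26924930 to 26925427) that had 22 tags and a score of 130.95. The lowest folds belonged to peaks with many tags for their class. A peak on chromosome 4 (86222619 to 86223072) had 19 tags at a fold of 5.5, one on chromosome 13 (97898282 to 97898751) had 20 tags at a fold of 5.54, and one on chromosome 17 (15112497 to 15112935) had 21 tags at a fold of 7.22. Their scores were 58.5, 52.9 and 56.8. All 3 had a background above the genome-wide level.

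That background could be read from the folds. Of all 2888 folds, 2099 were whole multiples of 1.9568 within 0.01, where evenly spread values would give about 1.02% of peaks by chance. The peak caller uses a local background only where it exceeds the value for the whole genome. Peaks at whole multiples were therefore taken to have the genome-wide value, called the floor, and the others a higher local one. Among close short peaks, 196 (24.9%, interval 21.9% to 28.1%) had a background above the floor, against 27.3% of the list and 22.5% of isolated short peaks (interval 20.1% to 25.1%). At the floor, 178 close short peaks had a fold of 13.7, 128 of 11.74 and 122 of 15.65, so 428 of the 591 shared only 3 values. Above the floor, the median fold was 11.8 (interval 11.5 to 12.1) and the median score 61.8 (interval 58.7 to 66.4), against a score of 67.1 at the floor (interval 65.1 to 69.5). A higher background lowers the fold by its construction. Every peak was above the floor in 54 of the 459 runs, among them the run on chromosome 1, and none was in 255.

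Close short peaks were found on all 19 autosomes and the X chromosome. Chromosome 7 had 96 and chromosome 11 had 95, the most, and the X chromosome had 12, the fewest. Chromosomes differ in their number of peaks, so the share of short peaks that were close ones is given next, which was 41.0% over the list (787 of 1918 short peaks, interval 38.8% to 43.3%). It was 53.4% on chromosome 11 (interval 45.8% to 60.9%) and 50% on chromosome 7 (interval 42.7% to 57.3%), both above that of the list. On chromosome 5 it was 29.5% (interval 21.2% to 38.8%), below it. The intervals of the other 17 chromosomes included 41.0%, the X chromosome among them with 12 of 27 short peaks (44.4%, interval 25.5% to 64.7%). With 20 intervals of this width, some can miss the overall share by counting error alone. Chromosomes 7 and 11 also had the most listed peaks, 279 and 273, and the share does not correct for how densely peaks lie.

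**Figure D5:**
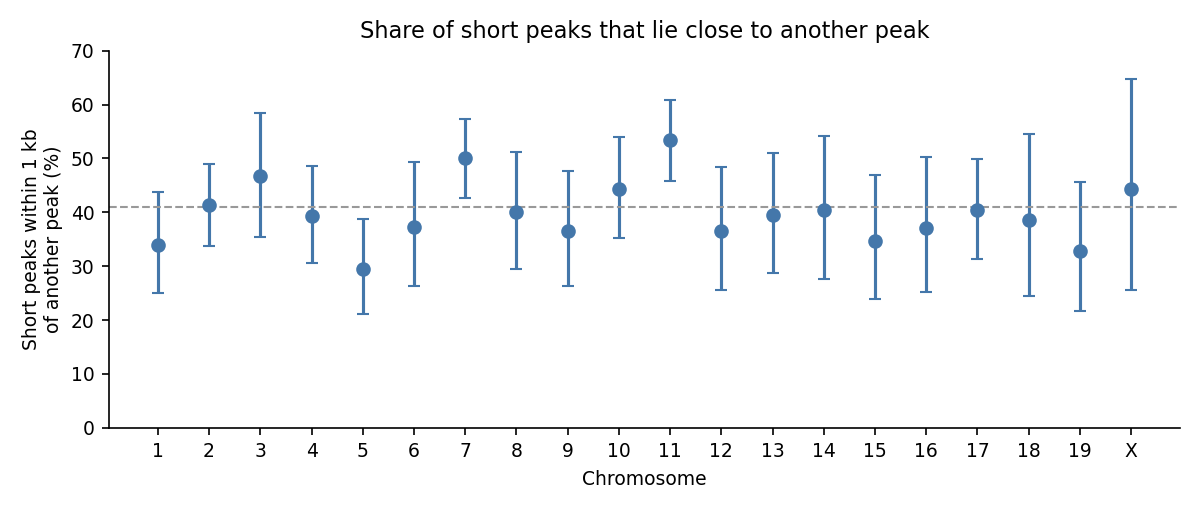
Percent of the short peaks of each chromosome that lay within 1 kb of another peak, with exact 95% intervals. The dashed line is the share over all chromosomes, 41.0%. Chromosomes 7 and 11 lie above the line with their whole interval and chromosome 5 below it.

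The close short peaks were spread over 345 windows of 1 Mb, of which 315 held 1 to 4. The most in any window was 10, from 79 to 80 Mb on chromosome 10 and from 97 to 98 Mb on chromosome 11, which includes the run of 6 short peaks and the pair with a gap of 1 bp. None of these 20 had a background above the floor, and their median scores were 59.6 and 65.0. Another 3 windows, picked for 20 or more peaks of which at least 80% had a background above the floor, lay on chromosome 4 (145 to 146 Mb with 4 close short peaks, 146 to 147 Mb with 1) and on chromosome 17 (15 to 16 Mb with 3). These windows had few short peaks, and 8 of the 14 (57.1%, interval 28.9% to 82.3%) were close ones, an interval that includes the 41.0% of the list.

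Peaks nearest the limits of the rule, given as a description, were as follows. Just inside the length limit, 3 close short peaks of 500 bp had 19, 19 and 26 tags and scores of 103.2, 103.2 and 98.0, and just outside it, 3 peaks of 501 bp with a close neighbour had 20, 22 and 23 tags and scores of 112, 130.4 and 140.0. Just inside the distance limit, a pair on chromosome 11 (95818729 to 95819027 and 95820027 to 95820352) had a gap of 999 bp, with 11 and 12 tags. Just outside it, a pair on chromosome 15 (76737372 to 76737788 and 76738790 to 76739179) had a gap of 1001 bp, with 17 and 13 tags.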

How the data were processed

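Reads of 1 ChIP library and 1 input library had been turned into a peak list by the authors. The submitters' processing notes name Bowtie, SAMtools, MACS version 1.4 and build mm9. Options, filters and reads per library were not given in the sources used here. The deposited columns, per the file headers, were the count of ChIP tags per peak, a score that is minus 10 times the log10 of the p-value, a fold enrichment (a ratio) and a false discovery rate in percent. The lowest score was 50.05, and a score of 50 stands for a p-value of 1e-05.

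All 2888 rows entered. Gap is the next start minus the end minus 1. Intervals of shares are exact Clopper-Pearson intervals and those of medians exact binomial intervals, both at 95%. They cover counting error only. The rule and named peaks (10 highest scores, 5 runs with the most close short peaks, ties broken by summed tags, 3 highest and 3 lowest folds, peaks at the limits) were chosen with earlier results of these data known. Other peaks were named after their values were seen. Steps were tested on simulated data. Base composition was not computed, as no mm9 genome was used here. Calculations used scipy 1.17.1, pandas 2.3.3 and numpy 2.4.6 in Python 3.11.15, and plots matplotlib 3.10.9.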

Additional observations from a re-analysis of the deposited data

How the results depend on the processing

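Of 88 values recomputed for 10 results, 60 stayed within the interval of the reported value (counts within 1.5 times) and 28 did not. Applying the rule only to peaks with a score of at least 100 left 62 close short peaks in 55 runs, with 0% at a false discovery rate above 5%, a median fold of 17.6, 19 tags, 14.5% above the floor, 82.3% next to a longer peak, 75.8% with the summit toward the neighbour and a median gap of 161 bp, where the reported values were 38.9%, 51.1% and 190 bp for the last 3. Of the 1038 listed peaks with such a score, 560 were mid-length and 305 broad, so most possible neighbours were longer ones. The 82.3% thus follows largely from the choice of peaks. These 62 are a part of the 100 close short peaks with such a score, so the 75.8% repeats the lean described above. With a false discovery rate of at most 5% there were 363 in 247 runs, 22.6% with a score of at least 100, a median fold of 15.7, 15 tags and 52.9% next to a longer peak. That limit removed 43.2% of close and 56.9% of isolated short peaks, but 2.33% of mid-length and 7.38% of broad ones. It thus left a larger share of longer peaks as possible neighbours. A length of 400 bp or less gave 3.86% with a score of at least 100, 56.5% with a false discovery rate above 5% and 54.6% next to a longer peak, and a length of 600 bp or less gave 20.9%, 37.8% and 31.1%. A longer peak meant one over 400 bp or over 600 bp in these settings, and one over 500 bp in the reported value. The shares next to a longer peak thus differ partly by definition. The median gap was 132 bp within 500 bp and 239 bp within 2 kb. Counting only the highest scoring close short peak of each run, a choice made after seeing the data, gave 459, with 20% at a score of at least 100, 28.3% at a false discovery rate above 5%, 14 tags and 56.2% next to a longer peak. Keeping the highest score raises the first share by its construction and largely moves the false discovery rate and tags with it. Each run also counts once here, and the longest peak was mid-length in 180 of the 459 runs and broad in 117. Leaving out the X chromosome or, chosen in the same way, the 3 windows of high background moved none of the 10 results. The 100 bp window for base composition was not run. No paired analysis was possible because each kind of library was made once. Sequencing depth is unknown, so a weak or absent peak cannot be read as absent binding.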
